A study of Mus musculus with 4 samples.

Results

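The cyclin-dependent kinase inhibitors are the genes whose products hold back the kinases that drive the cell division cycle. They were followed here as 8 genes of the 29353 genes on the array: Cdkn1a, Cdkn1b and Cdkn1c of the CIP/KIP family, Cdkn2a, Cdkn2b, Cdkn2c and Cdkn2d of the INK4 family, and Cdkn3. Members were taken by name, as the probes whose gene name in the scanner files is one of these 8, which gave 12 probes. Expression was measured on 4 Agilent 1-colour arrays, 1 array for each group, in cells sorted from the bone marrow of C57BL6/J mice 7 weeks of age. LSK cells, the marrow fraction that holds blood stem and early progenitor cells and is defined by Sca-1 and c-kit on cells without lineage markers, were taken at day 10 from mice that had received 700 cGy of radiation and 30000 transplanted LSK cells, and at day 0 from healthy mice. CD45-negative cells, which the labels call stromal or niche cells, were likewise taken at day 10 from irradiated and transplanted mice and at day 0 from healthy mice. The study asked which expression signatures niche cells show while stem cells proliferate. The leukocyte antigen CD45 tells the 2 sources of cells apart: transplanted cells were CD45.2, their hosts CD45.1, and the labels describe the stromal sort as CD45.1-negative in one place and as CD45-negative in others. A sort against CD45.1 alone would not remove transplanted CD45.2 cells from the day 10 sample. The labels do not give the number of mice behind an array. With 1 array a group no comparison has a test or an error between animals, and every difference below is a difference between 2 arrays. All 4 arrays lay on 1 slide.

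CIP/KIP proteins (p21, p27 and p57) bind complexes of a cyclin and its kinase, above all those of CDK2, whereas INK4 proteins (p15, p16, p18 and p19) bind CDK4 and CDK6 alone and keep D-type cyclins away from them. The product of Cdkn3 works in another manner: it is a phosphatase that removes the activating phosphate of CDK2, and its transcript is most abundant in dividing cells. In mouse marrow, p57 and p27 are known for keeping stem cells at rest, p18 for limiting their self-renewal, and p21 as the main effector of p53 after radiation. Loss of division at the end of red cell maturation is accompanied by p27 and p18.

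A level below is the log2 signal of a probe minus the 75th percentile of its array, and a difference is the difference of 2 levels. Each difference compares signals of 1 probe on different arrays. Only the marker sums below add levels of different probes, whose brightness also depends on the probe. Each gene is given by its brightest probe. The scanner called 56.6% of probes well above background in LSK cells at day 10, 54.5% at day 0, 52.0% in CD45-negative cells at day 10 and 47.6% at day 0. The markers of the sorts were present. Kit stood at 4.65 in LSK cells at day 10 and 5.04 at day 0, and Ly6a (Sca-1) at 2.86 and 2.98. Ly6a was higher in LSK cells at day 0, when CD45-negative cells had 0.20. It was not at day 10, when CD45-negative cells had 3.44. Ptprc, the gene of CD45, was above background in CD45-negative cells too, at 5.58 at day 10 and 3.10 at day 0. In LSK cells it stood at 4.25 at day 10 and 4.18 at day 0. The highest Ptprc level was thus that of CD45-negative cells at day 10. In that sort 7 of 10 stromal markers were above background at day 10 and 9 of 10 at day 0. In LSK cells 6 of the same 10 were above background at each day, so these counts hardly set the sorts apart at day 10. Kitl was above background on no array.

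Of the 8 members, 6 were well above background on all arrays: Cdkn1a, Cdkn1b, Cdkn1c, Cdkn2c, Cdkn2d and Cdkn3. In LSK cells none of these 6 was 2-fold apart between the days, and the differences lay between -0.24 and 0.22. In CD45-negative cells 5 of the 6 were at least 2-fold apart: Cdkn1a and Cdkn1c were higher at day 10, and Cdkn2c, Cdkn2d and Cdkn3 were lower relative to the other genes of the array, though higher, by 1.84, 2.09 and 1.47, when arrays were aligned on their spike-in controls. Cdkn2d was short of 2-fold under normexp background correction (-0.94) and quantile normalization (-0.96), which left 2 members lower, and Cdkn1c was at 0.11 under normexp. Cdkn1b was just short of 2-fold, at 1.98-fold lower (higher by 2.26 on the spike-in scale). It passed 2-fold under cyclic loess normalization (-1.06) and with the mean over a gene's probes (-1.04), each of which gave 4 members lower. The share of all genes at least 2-fold apart was 4.11% of 16408 in LSK cells and 41.4% of 14509 in CD45-negative cells. By direction, 23.6% of genes in CD45-negative cells were at least 2-fold higher and 17.9% lower, and in LSK cells 1.44% were higher and 2.68% lower. The members' median difference was 0.01 in LSK cells, where the median of all genes was -0.01, and -1.07 in CD45-negative cells, where it was 0.19. The lowest and highest members lay 0.45 apart in LSK cells and 3.20 apart in CD45-negative cells, a span that no shift of a whole array can alter.

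**Figure D1:**
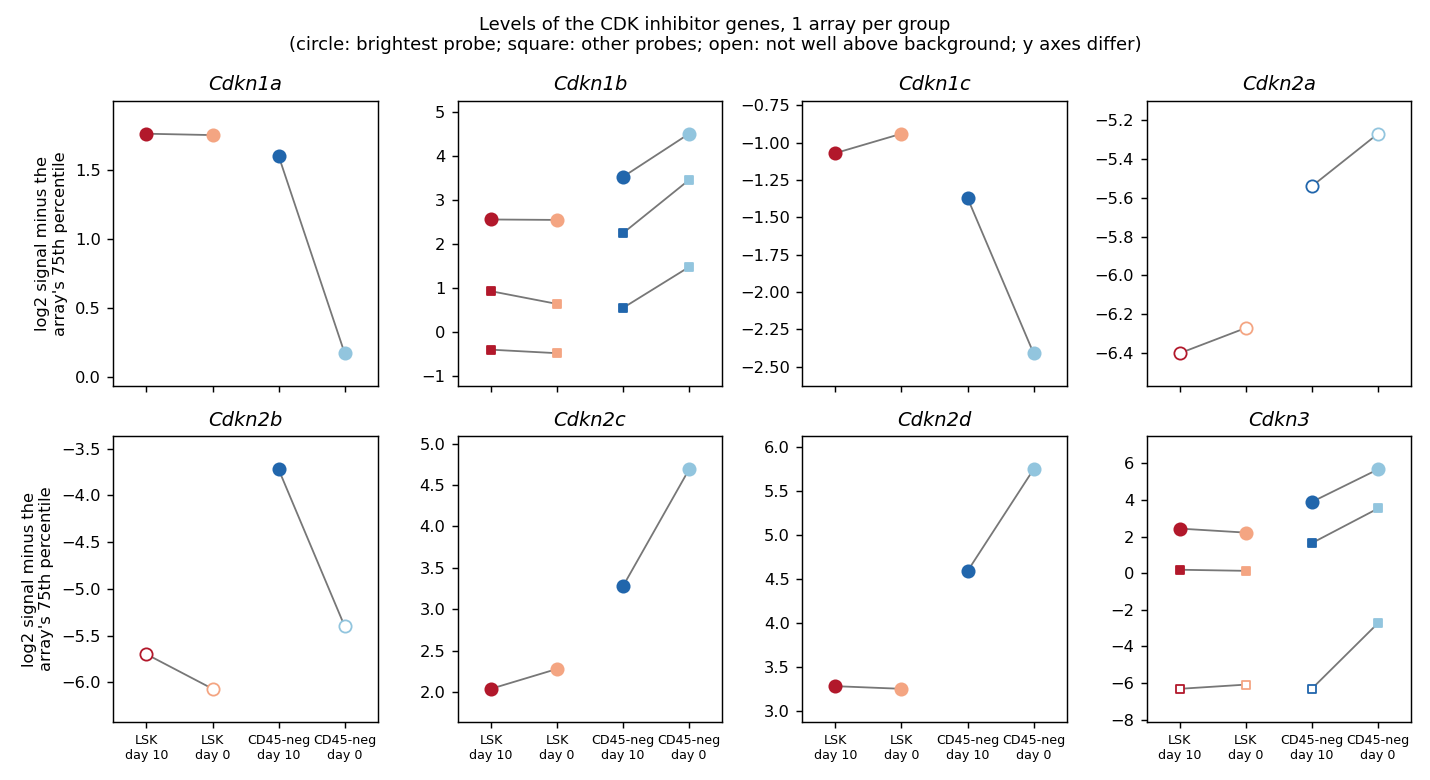
Each panel is 1 gene, with the log2 signal minus the array's 75th percentile on the vertical axis and the 4 arrays on the horizontal axis (circles, brightest probe; squares, other probes; open symbols, not well above background; vertical axes differ between panels). Lines join day 10 and day 0 of the same population: they are nearly flat for LSK cells in the 6 genes measured on all arrays, and slope in opposite directions for Cdkn1a and Cdkn1c against the other 4 in CD45-negative cells, on the 75th percentile scale (on the spike-in scale all 6 are higher at day 10).

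The direction of the lower differences in CD45-negative cells is relative. The 75th percentile of the array signals was 316 at day 10 and 116 at day 0, or 1.44 log2 units apart, and this step was removed by the scaling. Without it the signal of Cdkn2c was nearly equal, at an intensity of 3075 at day 10 and 3003 at day 0. That of Cdkn2d was 7578 at day 10 and 6228 at day 0, and that of Cdkn1b 3609 and 2634. Only Cdkn3 had the lower unscaled signal at day 10, with 4705 against 5942 at day 0. Unscaled, the median of the genes above background on both arrays was 1.63 higher at day 10, so Cdkn1b, Cdkn2c, Cdkn2d and Cdkn3, with unscaled differences of 0.45, 0.03, 0.28 and -0.34, lay below that median, and Cdkn1a and Cdkn1c, with 2.87 and 2.49, above it. Aligning the arrays on 5 spike-in control probes instead added 3.25 to every difference in CD45-negative cells, and 94.3% of genes were then at least 2-fold higher and 0.965% lower. All directions given for these cells below are relative to the 75th percentile.

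Markers of several blood cell types also differed between the CD45-negative arrays. All 9 erythroid markers on the array were at least 2-fold lower at day 10 (median -4.06). Since 4 of them were saturated on at least 1 array, their sum is given over the other 5: 17.3 at day 10 and 298 at day 0, in multiples of the 75th percentile. Of megakaryocyte markers 4 of 4 measured were lower (median -4.33; sums 1.4 at day 10 and 28.9 at day 0), and of stromal markers 7 of 7 (sums 13.8 and 141). T and NK cell markers were higher in 7 of 7 measured (sums 121 and 7.2), plasma cell markers in 4 of 4 (213 and 3.7) and basophil and mast cell markers in 3 of 3 (23.9 and 5.2). Without saturated probes, B cell markers summed to 56.9 and 19.2, with 4 of 5 measured higher, and neutrophil markers to 324 and 101, with 4 of 7 higher (median 1.08). The part of these cells in the members' differences was not tested, and fewer cells of a type and less RNA per cell cannot be told apart in such samples. In LSK cells the same sums were 5.1 at day 10 and 6.7 at day 0 for erythroid markers, 74.4 and 87.9 for T and NK cells, 11.2 and 203 for plasma cells, and 76.9 and 260 for basophils and mast cells. The T and NK sums were mostly Nkg7, with levels of 5.86 and 6.10, and the plasma cell sum at day 0 was mostly Jchain, at 7.60. Of 9 T and NK markers measured in LSK cells, 3 were at least 2-fold lower at day 10 and 1 higher (median -0.43).

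Cdkn1a encodes p21, the inhibitor that p53 induces after DNA damage. Its level was 1.76 in LSK cells at day 10 and 1.75 at day 0, and 1.60 in CD45-negative cells at day 10 against 0.17 at day 0. The CD45-negative array of day 0 thus stood apart below the other 3, which lay within 0.16 of each other. In CD45-negative cells Cdkn1a was 2.68-fold higher at day 10, a difference of 1.42 with a scanner software error of 0.21, higher than that of 87.0% of genes. In LSK cells the difference was 0.01 (error 0.20). This software error is the scanner software's own estimate for a spot and does not cover the spread between mice. It was a nearly fixed share of the signal, 10.0% to 10.3% on the arrays for Cdkn1a. The spread of replicate spots, for a difference of 2 arrays, was 0.255.

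The 250 bases before the upstream transcript start of Cdkn1a are shown because they hold a match to the p53 consensus. They lie at chr17:29090729-29090978 on the plus strand of GRCm38.p6 (RefSeq), and the capitals mark the match.
Cdkn1a upstream start: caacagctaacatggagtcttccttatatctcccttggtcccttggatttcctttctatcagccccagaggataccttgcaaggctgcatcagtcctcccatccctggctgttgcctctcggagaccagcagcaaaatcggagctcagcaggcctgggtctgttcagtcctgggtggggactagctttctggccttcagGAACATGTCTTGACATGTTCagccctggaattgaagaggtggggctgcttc
The consensus of a pair of abutting decamers was allowed 1 mismatch outside the invariant C and G of each decamer and was read on both strands. It was found in 19 of 32851 promoter windows of this length, or 0.0578%, and in 1 of the 10 windows available for 7 of the 8 members. The match shown uses the 1 mismatch allowed, a T at the first base of its second decamer. A match is a description of the sequence, and occupancy by p53 was not measured here.

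Cdkn1c encodes p57, an imprinted inhibitor read from the maternal copy. Its level was -1.07 in LSK cells at day 10 and -0.94 at day 0, and -1.37 in CD45-negative cells at day 10 against -2.41 at day 0. The order of the arrays was close to that of Cdkn1a, again with CD45-negative cells of day 0 lowest. Its difference in CD45-negative cells was 1.04, with a software error of 0.30, or 2.06-fold higher at day 10. This value rests on a dim spot, with an intensity of 122 at day 10 and 21.8 at day 0, and was 0.11 under normexp background correction. In LSK cells the difference was -0.13 (error 0.21).

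Cdkn1b encodes p27, whose amount in cells is set largely by degradation of the protein, which an array of transcripts does not show. Its brightest probe stood at 2.55 in LSK cells at day 10 and 2.54 at day 0, and at 3.52 in CD45-negative cells at day 10 against 4.50 at day 0. Here the CD45-negative cells held the higher levels, with day 0 on top. The difference was -0.99 in CD45-negative cells (error 0.20) and 0.01 in LSK cells. The other 2 probes of Cdkn1b gave -1.20 and -0.93 in CD45-negative cells and 0.29 and 0.08 in LSK cells, so the 3 probes lay on both sides of the 2-fold line and shared the direction in CD45-negative cells.

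Probe sequences are shown for Cdkn1b and Cdkn3 at those spots that lie in the coding part of the transcript, so that the measured stretch can be seen. The Cdkn1b oligo covers the kinase-binding region shared by the CIP/KIP proteins. All letters are lower case because no part is singled out, and Cdkn1b lies on chromosome 6 and Cdkn3 on chromosome 14.
Cdkn1b, coding probe: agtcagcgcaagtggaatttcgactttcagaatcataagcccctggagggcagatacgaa
Cdkn3, brightest probe: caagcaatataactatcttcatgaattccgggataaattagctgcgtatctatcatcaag
Cdkn3, second probe: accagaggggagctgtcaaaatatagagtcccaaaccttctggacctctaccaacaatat
The Cdkn1b oligo is the one that gave -1.20 in CD45-negative cells, and both Cdkn3 oligos are among the measurements given further on.

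Cdkn2c encodes p18 and Cdkn2d encodes p19Ink4d, the INK4 members known from maturing blood cells. Cdkn2c stood at 2.04 in LSK cells at day 10 and 2.28 at day 0, and at 3.28 in CD45-negative cells at day 10 against 4.69 at day 0. Cdkn2d stood at 3.28 in LSK cells at day 10 and 3.25 at day 0, and at 4.59 in CD45-negative cells at day 10 against 5.75 at day 0. For both genes the CD45-negative array of day 0 was highest and the LSK arrays were lowest. Cdkn2c was 2.65-fold lower and Cdkn2d 2.23-fold lower at day 10 in CD45-negative cells, with differences of -1.41 and -1.16 (error 0.20 each). In LSK cells Cdkn2c had the lowest difference of the members, at -0.24 (error 0.20), and Cdkn2d had 0.02. The array lists a second accession, of a predicted transcript, for the Cdkn2d probe, so a near copy could share its signal.

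Cdkn2a and Cdkn2b gave no measured difference. Cdkn2a, whose overlapping transcripts encode p16Ink4a and the p53 activator p19Arf, was not well above background on any array, with intensities of 2.8 in LSK cells at day 10 and 2.6 at day 0, and of 6.8 and 3.0 in CD45-negative cells. Its 1 probe is listed for both transcripts and could not separate them. Cdkn2b, which encodes p15, an inhibitor induced by TGF-beta, was well above background on 1 array, CD45-negative cells at day 10, with an intensity of 23.9. On the others it read 4.6 in LSK cells at day 10, 3.0 at day 0, and 2.8 in CD45-negative cells at day 0. Its level of -3.72 at day 10 lay below the lowest level called above background at day 0, -3.15, so no fold is given between the days. At day 10 it was at least 1.32-fold lower in LSK cells than in CD45-negative cells, a bound from the lowest level called above background there, -4.12.

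Cdkn3 had the largest day difference of the members in CD45-negative cells. Its brightest probe stood at 2.44 in LSK cells at day 10 and 2.22 at day 0, and at 3.90 in CD45-negative cells at day 10 against 5.68 at day 0. The difference in CD45-negative cells was -1.78 (error 0.20), or 3.43-fold lower at day 10, and only 8.7% of genes had a lower one. The second probe gave -1.88 there, and 0.06 in LSK cells where the brightest gave 0.22 (error 0.20). Another probe, which the files name Cdkn3 but list under a separate cDNA clone, was above background in CD45-negative cells of day 0 alone, at -2.73. It was at least 2.84-fold lower at day 10 on the 75th percentile scale. That spot was dim, with an intensity of 17.5 at day 0 and a software error of 20.2%. The bound also contains the step of 1.44 between the arrays that the scaling removed.

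The promoters of Cdkn3 and Cdkn2c are shown side by side because both genes were lower in CD45-negative cells at day 10 and their upstream letters differ. Capitals mark CCAAT and TTTGAA, the letters of the CCAAT box and of the cell cycle homology region of many mitotic genes, and TTCCCGC, the core of an E2F site, each on either strand. The Cdkn3 stretch is chr14:46760291-46760540, plus strand, and the Cdkn2c stretch chr4:109666757-109667006, minus strand, both from RefSeq on GRCm38.p6.
Cdkn3 promoter: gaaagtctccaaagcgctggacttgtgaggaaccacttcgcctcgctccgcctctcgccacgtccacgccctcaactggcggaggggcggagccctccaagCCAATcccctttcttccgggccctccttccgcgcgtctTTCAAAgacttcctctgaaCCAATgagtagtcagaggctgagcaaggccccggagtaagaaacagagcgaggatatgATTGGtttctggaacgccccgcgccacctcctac
Cdkn2c promoter: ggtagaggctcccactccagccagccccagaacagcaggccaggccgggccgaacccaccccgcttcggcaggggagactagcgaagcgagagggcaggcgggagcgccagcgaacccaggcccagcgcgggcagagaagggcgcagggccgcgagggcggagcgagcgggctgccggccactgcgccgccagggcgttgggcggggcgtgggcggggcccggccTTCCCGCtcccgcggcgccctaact
Cdkn3 held 3 CCAAT matches, which begin 149, 92 and 34 bases before the start, and 1 TTTGAA match at 111 bases. Cdkn2c held 1 TTCCCGC match, 25 bases before its start. Among 32851 promoter windows CCAAT was in 33.8%, TTTGAA in 16.0% and TTCCCGC in 3.82%. Of the 10 windows of the members, 3 held CCAAT, 2 TTTGAA and 2 TTCCCGC, while GGGCGG, the GC box, was in 6 (32.7% of all windows) and TGTTTAC, a forkhead site, in 0 (3.17% of all). No matches overlapped.

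**Figure D2:**
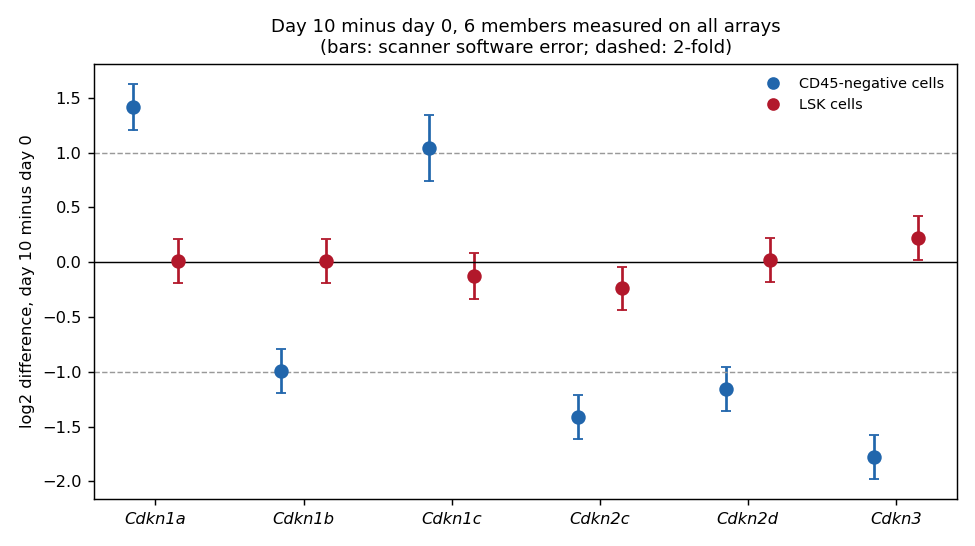
Log2 difference of day 10 minus day 0 for the 6 members measured on all arrays, in CD45-negative cells (blue) and LSK cells (red), with the scanner software's error as bars and 2-fold as dashed lines. The red points stay between -0.24 and 0.22, and the blue points lie at 1.42 and 1.04 for Cdkn1a and Cdkn1c and between -0.99 and -1.78 for the other 4, which turn positive on the spike-in scale.

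LSK cells were then compared with CD45-negative cells on the same day. These comparisons use the same 4 arrays as those between the days. Of all genes 23.7% were at least 2-fold apart at day 10 and 39.5% at day 0, and of the 6 members 3 and 6. At day 10, Cdkn2c, Cdkn2d and Cdkn3 were at least 2-fold lower in LSK cells, 3 of 6 members against 12.6% of 15848 genes, and 0 of 6 members were at least 2-fold higher against 11.1%. At day 0, Cdkn1a and Cdkn1c were at least 2-fold higher in LSK cells, 2 of 6 against 21.8% of 14552 genes, and Cdkn1b, Cdkn2c, Cdkn2d and Cdkn3 were lower, 4 of 6 against 17.7%. The members' median was -1.10 at day 10 and -2.19 at day 0, with medians of 0.01 and 0.08 over all genes. On the spike-in scale 81.1% of genes were at least 2-fold lower and 0.738% higher in LSK cells at day 10, among them all 6 members, and 77.2% were higher and 3.86% lower at day 0.

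On the 75th percentile scale each of the 6 gaps was smaller at day 10; on the spike-in scale those of Cdkn1b, Cdkn2c, Cdkn2d and Cdkn3 were -2.66, -2.94, -3.00 and -3.15 at day 10 and smaller, at -0.21, -0.67, -0.74 and -1.71, at day 0. For Cdkn1a the gap of LSK minus CD45-negative cells was 0.16 at day 10 and 1.58 at day 0, but its sign turned on the spike-in scale, with -1.53 at day 10 and 3.33 at day 0, and without scaling, with -0.24 and 2.36. For Cdkn1c the gap was 0.29 at day 10 and 1.47 at day 0, again with a turn of sign on the spike-in scale, -1.40 and 3.22, and without scaling, -0.11 and 2.24. Under normexp background correction the day 0 gap of Cdkn1c was 0.56. For Cdkn1b, Cdkn2c and Cdkn2d the gaps at day 10 were -0.97, -1.24 and -1.31 and those at day 0 were -1.96, -2.42 and -2.49, so 49.2%, 51.5% and 52.6% of the day 0 gap remained on the 75th percentile scale. For Cdkn3 they were -1.46 and -3.46, or 42.2%. A smaller gap at day 10 was common: it was seen in 61.6% of 14189 genes measured on all arrays, and in 89.4% of the 5593 that were at least 2-fold apart at day 0, as all 6 members were.

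**Figure D3:**
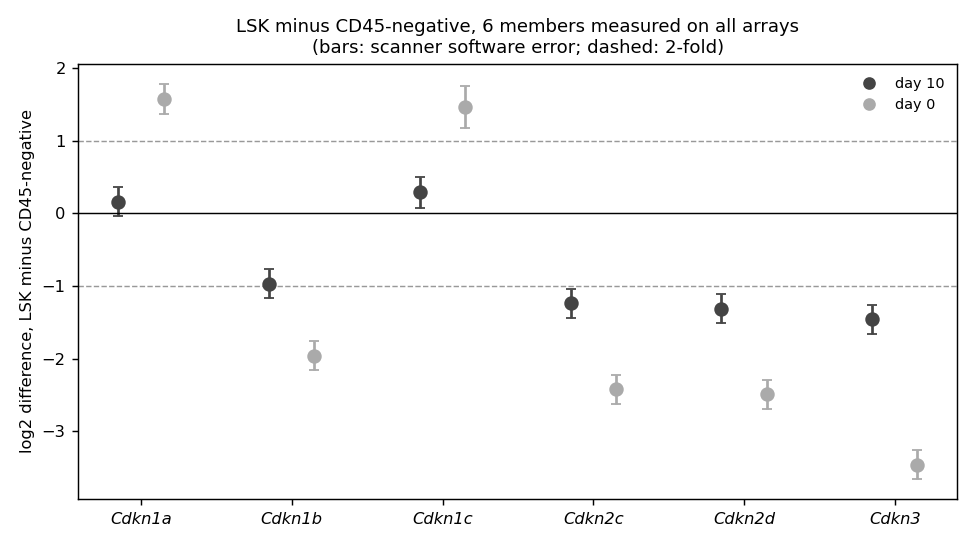
Log2 difference of LSK minus CD45-negative cells for the same 6 members at day 10 (dark) and day 0 (light), with the scanner software's error as bars and 2-fold as dashed lines. On this 75th percentile scale all dark points lie closer to 0 than the light points of the same gene, which does not hold for Cdkn1b, Cdkn2c, Cdkn2d and Cdkn3 on the spike-in scale, and Cdkn1a, at 0.16, lies within its error of 0.20.

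The genes that the inhibitors act on gave a mixed picture in CD45-negative cells. Of 12 measured CDKs and cyclins, 6 were at least 2-fold lower and 1 higher at day 10 (median -0.93), and in LSK cells none of 12 was 2-fold apart (median 0.11). Over all genes in CD45-negative cells, 17.9% were at least 2-fold lower and 23.6% higher. Ccne2 and Ccne1, the E-type cyclins that activate CDK2, differed by -2.94 and -2.12, and Ccna2, the cyclin of DNA synthesis and G2, by -2.14. Ccnd2, a D-type cyclin and so a partner of the kinases that INK4 proteins block, went the other way with 2.18. The kinases themselves differed by 0.89 for Cdk4, 0.34 for Cdk6, -0.39 for Cdk2 and -1.69 for Cdk1, whose other probe gave 0.14.

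Downstream, among the pocket proteins, E2F factors and DREAM subunits, 7 of 16 measured genes were at least 2-fold lower and 0 higher in CD45-negative cells (median -0.89). The shares over all genes there were 17.9% lower and 23.6% higher. E2f4, a repressor-type E2F, differed by -2.61, Tfdp2, a partner of the E2F factors, by -2.01, Rb1, the retinoblastoma protein that CDKs inactivate, by -1.84 and E2f8 by -1.76. The other probes gave -3.93 and -3.66 for Tfdp2 and -2.59 for Rb1. In LSK cells 0 of 17 were 2-fold apart. Of 19 mitosis genes, 15 were at least 2-fold lower in CD45-negative cells (median -1.51) and 0 of 19 were 2-fold apart in LSK cells (median 0.16). Ube2c, a ubiquitin enzyme of mitotic exit, differed by -2.43, Mki67, the proliferation marker, by -2.25, Prc1, of the spindle midzone, by -2.23 and Tpx2, a spindle assembly factor, by -1.97, with other Tpx2 probes between -1.14 and -0.50. The other probe gave -3.15 for Mki67 and -2.38 for Prc1. Cdkn3, at -1.78, lay near the median of these mitosis genes.

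Upstream of Cdkn1a, p53 and its targets were near the share over all genes. Of 17 measured, 5 were at least 2-fold higher and 3 lower in CD45-negative cells at day 10 (median 0.50), where 23.6% of all genes were higher and 17.9% lower, and 1 was higher in LSK cells (median -0.12). Pmaip1, a cell death gene of the p53 response, was the one that was higher in both, by 2.59 in CD45-negative cells and 1.41 in LSK cells. Fas, a death receptor, was higher by 1.93 in CD45-negative cells, while Gadd45a and Btg2, both growth-arrest genes, differed by -2.32 and -2.04. Other probes of Btg2 ranged from -1.88 to -0.47. Trp53 itself differed by 0.31 in CD45-negative cells, where its other probe gave -0.30, and by 0.44 in LSK cells.

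Regulators of the other members varied as well. Of all genes in CD45-negative cells, 23.6% were at least 2-fold higher and 17.9% lower. Of 13 measured FOXO, SMAD and Miz1 regulators, which control Cdkn1b, Cdkn2b and Cdkn1a, 8 were at least 2-fold higher and 2 lower in CD45-negative cells (median 1.18). Smad3 and Smad4, which carry TGF-beta signals to the nucleus, differed by 1.90 and 1.71, and Foxo1 by 1.77, while Foxo3 differed by -3.17. The other Smad4 probe gave 2.78. Of 16 measured Polycomb and Ink4-Arf regulators, 6 were higher and 1 lower (median 0.65). Bmi1, the repressor of Cdkn2a in mouse stem cells, differed by 2.02 at its brightest probe and 1.01 at the other, Phc1 by 2.01 and Cbx2 by 1.94. Of 9 genes of p27 turnover, 2 were lower (median -0.59), near the share over all genes, and 0 were higher. The lower genes were Rnf123 and Ubac1, the subunits of a ubiquitin ligase that acts on p27, by -3.50 and -3.43. Skp2, the ligase subunit that marks p27 in S phase, differed by -0.86 and Cul1 by -0.64. In LSK cells 0 genes of these 3 lists were 2-fold apart.

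Imprinted growth genes, the class to which Cdkn1c belongs, were seldom measured, with 4 of 15 on both CD45-negative arrays and 8 of 15 on both LSK arrays. Igf2r was higher by 1.17 in CD45-negative cells and Plagl1 differed by -0.76. In LSK cells Phlda2, a neighbour of Cdkn1c, differed by -1.13 and Kcnq1ot1, the noncoding transcript of the same imprinted region, by -0.46, while Cdkn1c itself differed by -0.13. Phlda2 was dim: its day 10 level of -3.77 lay near the lowest level called above background there, -4.12. Among 11 other brakes on division, 3 were at least 2-fold higher and 2 lower in CD45-negative cells (median -0.15), shares near the 23.6% and 17.9% over all genes. Cables1, a cofactor that favours inhibition of CDKs, differed by 2.47 and Gadd45b by 1.74.

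**Figure D4:**
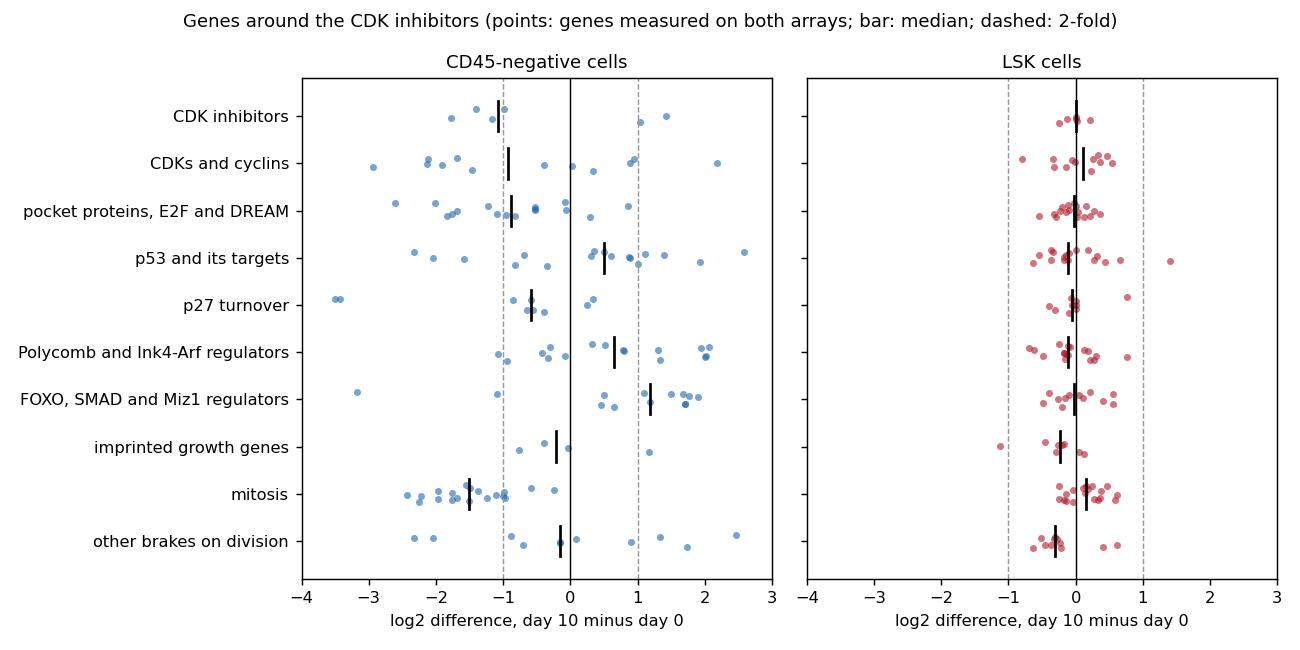
Log2 difference of day 10 minus day 0 for the CDK inhibitors and 9 lists of genes around them, in CD45-negative cells (left) and LSK cells (right). Each point is a gene above background on both arrays compared, the bar is the list's median and dashed lines mark 2-fold. Points spread widely on the left, with medians from -1.51 for mitosis to 1.18 for FOXO, SMAD and Miz1 regulators, and lie nearer 0 on the right, where Pmaip1 at 1.41 and the dim Phlda2 at -1.13 are past 2-fold.

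The genes whose profile over the 4 arrays was most like that of each member were looked up among 10359 named genes above background on all arrays, by the root mean square gap between profiles centred on their own mean. For Cdkn1a these were Endog (gap 0.019), Tpm3 (0.021) and Ivd (0.024), and for Cdkn1c Tmem43 (0.011), Ppp5c (0.014) and Wdr19 (0.028). For Cdkn1b they were Plcl2 (0.027), Cenpp (0.037) and Fignl1 (0.052), for Cdkn2c Sec62 (0.051), Oas1e (0.053) and Gps2 (0.069), and for Cdkn2d Trim45 (0.061), Pcmtd2 (0.063) and Abhd5 (0.066). For Cdkn3 they were Ube2h (0.036), Mylpf (0.050) and E2f2 (0.062). The likeness describes these 4 arrays only.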

How the data were processed

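Gene expression was measured on 4 arrays. Per the labels' protocols, oligo-dT-primed RNA was labelled with Cy3. Per the file headers the scans were processed with Agilent Feature Extraction 10.5.1.1, and the deposited spot values are fluorescence intensity: a raw mean, a local background and a processed signal, background-subtracted and spatially detrended, with its error. The deposited files also hold detection, saturation and outlier flags and a control type (unit: other). In the deposited series table the values are on the log2 scale, equal within 0.001 to the log2 processed signal minus 1 constant per array for at least 99.901% of probes.

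Control and outlier spots were dropped, log2 processed signals were averaged per probe, and each array's 75th percentile over 61307 probes was subtracted (Python 3.11.15, R 4.3.3, limma 3.58.1). Gene names came from the files, updated through RefSeq accessions (69.3% of 40628 gene probes). A gene counts as measured where the scanner flag of its brightest probe is set to well above background on both arrays compared; at least 2-fold is a size, not a test. An additive fit of population and day was not made, since it would take the contrast between the populations as error. Replicate spots had an SD of 0.156 to 0.205 log2 units; the number of arrays limits the precision. All 8 members are named; of each process list, the 4 genes with the largest day difference, and for each member the 3 most alike genes. Cdk1, Cdk2, Cdk4, Cdk6, Ccnd1, Trp53 and sort markers were named in addition, and 1 gene that the rule names is not reported here. Members and lists were chosen with earlier results of these data known. The code was tested on simulated data. The alternatives were normexp correction (offset 50), other normalizations and shifts, the series table, other probe rules and filters, and other sizes.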

Additional observations from a re-analysis of the deposited data

Results flagged for a closer look

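The day difference of 3 members had opposite signs in CD45-negative and LSK cells, and was at least 2-fold in the first, on the 75th percentile scale. The contrast between the populations was not tested, since each rests on 1 array per day. For Cdkn1c the differences were 1.04 in CD45-negative cells and -0.13 in LSK cells, 1.17 apart. For Cdkn2d they were -1.16 and 0.02, -1.18 apart. The LSK values of Cdkn1c and Cdkn2d lie within their software errors of 0.21 and 0.20. For Cdkn3 the differences were -1.78 and 0.22, -2.00 apart, and the second Cdkn3 probe gave -1.88 and 0.06. The LSK value of the brightest Cdkn3 probe is close to its error of 0.20, and that of the second lies within its error of 0.21. The pattern depends on the processing. In CD45-negative cells Cdkn1c was at 0.11 under normexp correction, and Cdkn2d at -0.94 under normexp and -0.96 under quantile normalization, all short of 2-fold. Without scaling the signs were alike for Cdkn1c, with 2.49 in CD45-negative and 0.14 in LSK cells, and for Cdkn2d, with 0.28 and 0.29. On the spike-in scale they were alike for Cdkn3, with 1.47 and 0.03.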

How the results depend on the processing

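Under 14 alternatives, 1 of them (no scaling between arrays) chosen after seeing the data, 139 of the 160 recomputed counts and medians and 237 of the 288 recomputed differences of single members stayed within the spread of replicate spots (0.255) or 1.5 times the count. Part of this agreement was fixed in advance. The detection filters leave the values of single members as they are, and the probe rules cannot alter members with 1 probe. The series table holds the same signal minus a constant per array. Aligning on spike-in controls is a pure shift of each array and moved most. It gave 6 members at least 2-fold higher and 0 lower between the days in CD45-negative cells, with a median of 2.18, and turned Cdkn2c to 1.84, Cdkn2d to 2.09 and Cdkn3 to 1.47. Of LSK against CD45-negative cells it gave 6 lower with a median of -2.80 at day 10, and 1 lower with a median of -0.44 at day 0. With no scaling the median was 0.27 between the days in LSK cells and 0.37 in CD45-negative cells, where 0 members were at least 2-fold lower, Cdkn2c was 0.03 and Cdkn2d 0.28. The unscaled median of LSK against CD45-negative cells was -1.50 at day 10 and -1.41 at day 0. Under normexp correction the CD45-negative days gave 1 member higher, 2 lower and a median of -0.72, with Cdkn1a at 1.15, Cdkn1b at -0.50, Cdkn1c at 0.11, Cdkn2d at -0.94 and Cdkn3 at -1.46, and LSK against CD45-negative cells at day 0 gave 1 higher; the cause was not tested. Quantile normalization gave 2 lower, with Cdkn2d at -0.96. Cyclic loess normalization and the mean over a gene's probes each gave 4 lower between these days, with Cdkn1b at -1.06 and -1.04. With no detection filter, which adds Cdkn2a and Cdkn2b, the median was -0.63 for the CD45-negative days and -1.48 for LSK against CD45-negative cells at day 0. At 3-fold, 0 members were higher and 1 lower between the days in CD45-negative cells, 0 were lower in LSK cells at day 10 and 0 higher at day 0. No scaling between the arrays is free of assumption, and which is nearest to the amount of RNA per cell was not tested.

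In LSK cells, 0.78% of genes were higher and 4.07% lower on the spike-in scale. No paired analysis was possible because each group has 1 array, which also leaves no replicate to omit. The dim spots of Cdkn1c, Cdkn2a and Cdkn2b limit what can be said of them.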

Other observations

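The lists were also set between the populations, on the 75th percentile scale unless said otherwise. Of 19 mitosis genes, 0 were at least 2-fold lower in LSK than in CD45-negative cells at day 10 and 18 at day 0 (medians -0.35 and -1.81). Cdkn2c, Cdkn2d and Cdkn3 were at least 2-fold lower in LSK cells at both days. Of all genes, 12.6% were so lower at day 10 and 17.7% at day 0. This contrast depends on the scale. Aligning on spike-in controls added -1.69 to every such difference at day 10 and 1.75 at day 0. Cdkn2c and Cdkn2d were then at -0.67 and -0.74 at day 0, short of 2-fold. The mitosis counts were not recomputed on the spike-in scale. Of the kinases that INK4 proteins bind, Cdk6 was higher in LSK cells by 3.07 at day 10 and 3.06 at day 0, and Cdk4 differed by -0.13 and 0.76. Ccnd1, a D-type cyclin, was higher in LSK cells by 3.24 at day 10 and 3.93 at day 0. These genes were picked after their values were seen.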
